A study of Mus musculus with 24 samples.

Results

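Mast cells of Panc02 tumors were chosen by their granule protease transcripts. Of 144994 barcodes in 16 RNA libraries, 120912 had at least 1000 UMIs and under 10% of UMIs from mitochondrial genes. A mast cell barcode had to hold at least 20 UMIs per 10000 of *Cpa3*, *Tpsb2*, *Cma1*, and *Mcpt4* together, no UMI of *Cd3d*, *Cd3e*, or *Cd3g*, and under 10 UMIs per 10000 of *C1qa*, *C1qb*, and *C1qc* together. This left 63 barcodes, 0.0521% of those that passed the depth limits. The levels of these 10 genes chose the barcodes and are given as a description, with no test. The sum of the 4 proteases was 21.5–1681 UMIs per 10000 (median 207). The 10 members nearest the limit had 21.5–35.0 (3–52 UMIs), and the 10 barcodes nearest it from below had 13.2–19.6 (2–6 UMIs). A further 29 barcodes reached the protease limit with a *Cd3* UMI and 3 with C1q UMIs, and these were left out.

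The libraries come from tumors of the mouse pancreatic cancer line Panc02 implanted into wild-type (WT) male C57BL/6 mice of 6–7 weeks and, by the sample labels, which also give the treatment days below, harvested on day 38. The 8 treatments were Isotype Control, Anti-PD-1, Anti-CTLA-4, both antibodies (Anti-PD-1 + Anti-CTLA-4), and each of these 3 with PancVAX, with PancVAX alone as the last. PancVAX is a neoantigen peptide vaccine (50 μg of each peptide, days 12 and 19) given with AddaVax and a STING agonist, and groups without it received PBS, so that peptides and adjuvants cannot be told apart. Antibodies or their isotype controls were given at 100 μg, starting on day 12 for anti–PD-1, and on days 15 and 22 for anti–CTLA-4. Tumors of a treatment were pooled. Each treatment gave a library from dissociated whole tumor and another from a Percoll-enriched immune fraction. The 2 preparations were sequenced as separate batches. Whether both held the same mice is not stated, and a pool here means the 2 libraries of a treatment. Libraries held 77132398–176233225 UMIs and 4881–10640 barcodes past the depth limits. The mice of a pool cannot be told apart, and no treatment had a further pool. A *P* value for a share by agent measures the spread between pools, which differ in mice and in the other agents. That for preparation measures the spread of the differences between the 2 libraries of a treatment.

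Mast cells are tissue-resident granulocytes that grow under stem cell factor, the ligand of the receptor tyrosine kinase Kit, and carry IgE on the high-affinity receptor FcεRI. Their granules hold serine proteases (chymases and tryptases) and carboxypeptidase A bound to serglycin, together with histamine and, in mice, serotonin. Mouse mast cells are classed as connective tissue type, rich in *Cma1* (mouse mast cell protease 5), *Mcpt4*, *Tpsb2*, and *Cpa3*, or as mucosal type, rich in *Mcpt1* and *Mcpt2*.

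*Cpa3* encodes carboxypeptidase A3, *Cma1* and *Mcpt4* encode chymases of connective tissue mast cells, and *Mcpt1* encodes a chymase of mucosal mast cells. The 250 bases before the start of these genes are shown because the proteases chose the barcodes or split them below, and because the transcript of *Gata2*, a GATA factor of mast cells and basophils, was found in them. Sequences are from RefSeq (GRCm38.p6), 5′ to 3′ on the gene's strand, for *Cpa3* at chr3:20242182-20242431 (minus strand), *Cma1* at chr14:55944676-55944925 (minus), *Mcpt4* at chr14:56062311-56062560 (minus), and *Mcpt1* at chr14:56017714-56017963 (plus). Capitals mark AGATAA or TGATAA, searched on both strands.
Cpa3: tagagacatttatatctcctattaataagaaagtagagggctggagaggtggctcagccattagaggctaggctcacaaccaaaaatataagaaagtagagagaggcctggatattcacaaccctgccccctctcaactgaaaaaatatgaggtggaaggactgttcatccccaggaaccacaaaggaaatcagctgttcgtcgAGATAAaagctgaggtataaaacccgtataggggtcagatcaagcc
Cma1: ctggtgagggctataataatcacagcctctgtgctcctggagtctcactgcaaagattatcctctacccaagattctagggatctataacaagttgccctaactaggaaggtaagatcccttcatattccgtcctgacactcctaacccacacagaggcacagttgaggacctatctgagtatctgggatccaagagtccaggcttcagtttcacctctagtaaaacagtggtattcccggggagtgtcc
Mcpt4: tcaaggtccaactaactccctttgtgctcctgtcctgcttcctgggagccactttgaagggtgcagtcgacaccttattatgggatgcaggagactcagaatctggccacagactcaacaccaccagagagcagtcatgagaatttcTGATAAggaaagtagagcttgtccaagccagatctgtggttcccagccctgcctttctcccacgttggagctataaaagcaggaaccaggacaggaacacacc
Mcpt1: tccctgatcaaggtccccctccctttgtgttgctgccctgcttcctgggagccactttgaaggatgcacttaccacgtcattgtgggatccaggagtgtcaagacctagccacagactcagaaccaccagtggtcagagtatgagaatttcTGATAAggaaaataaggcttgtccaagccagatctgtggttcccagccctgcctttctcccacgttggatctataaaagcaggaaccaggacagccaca
*Cpa3* held 1 match 46 bases before its start, *Mcpt4* held 1 at 103 bases, *Mcpt1* held 1 at 99 bases, and *Cma1* held 0. Of 27025 promoters of the same length, 4591 (17.0%) held a match. The *Mcpt1* and *Mcpt4* stretches were identical at 208 of 254 aligned positions (81.9%), against 50.6% for *Cma1* and *Mcpt4*. *Mcpt2*, *Tpsb2*, and *Tpsab1* are named only. These protease genes are close relatives, and Cell Ranger counts reads that map to a single gene, so reads from stretches that *Mcpt1*, *Mcpt2*, and *Mcpt4*, or *Tpsb2* and *Tpsab1*, have in common can be lost or misplaced and their levels are uncertain.

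One library stood apart before any comparison. The PancVAX + Anti-PD-1 Percoll library held 36 of the 63 mast cell barcodes and 28 of the 29 left out for *Cd3*. Of the 95 barcodes at the protease limit, 61, all from this library, fell into 6 groups whose count profiles differed by no more than sampling noise. Within groups, the chi-square per degree of freedom of 2 barcodes was 0.733–1.29 (median 1.01, 516 pairs). Mast cell barcodes outside the groups differed by 1.52 or more (median 5.25, 435 pairs), and 40 C1q barcodes of the same library by 1.44 or more (median 3.08, 780 pairs). Pairs among 40 *Cd3* barcodes of that library reached down to 1.04 (median 2.74). The C1q and *Cd3* barcodes were not matched to the groups in depth. The cell barcode sequences inside a group differed at a median of 12 or 13 positions. Over all 3949 pairs of barcodes at the protease limit that did not share a group the lowest ratio was 1.24, below the highest within groups, so the ranges overlapped. The limit on this ratio was set after seeing the data, and limits from 1.2 to 1.4 gave the same number of groups and of grouped barcodes.

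**Figure D1:**
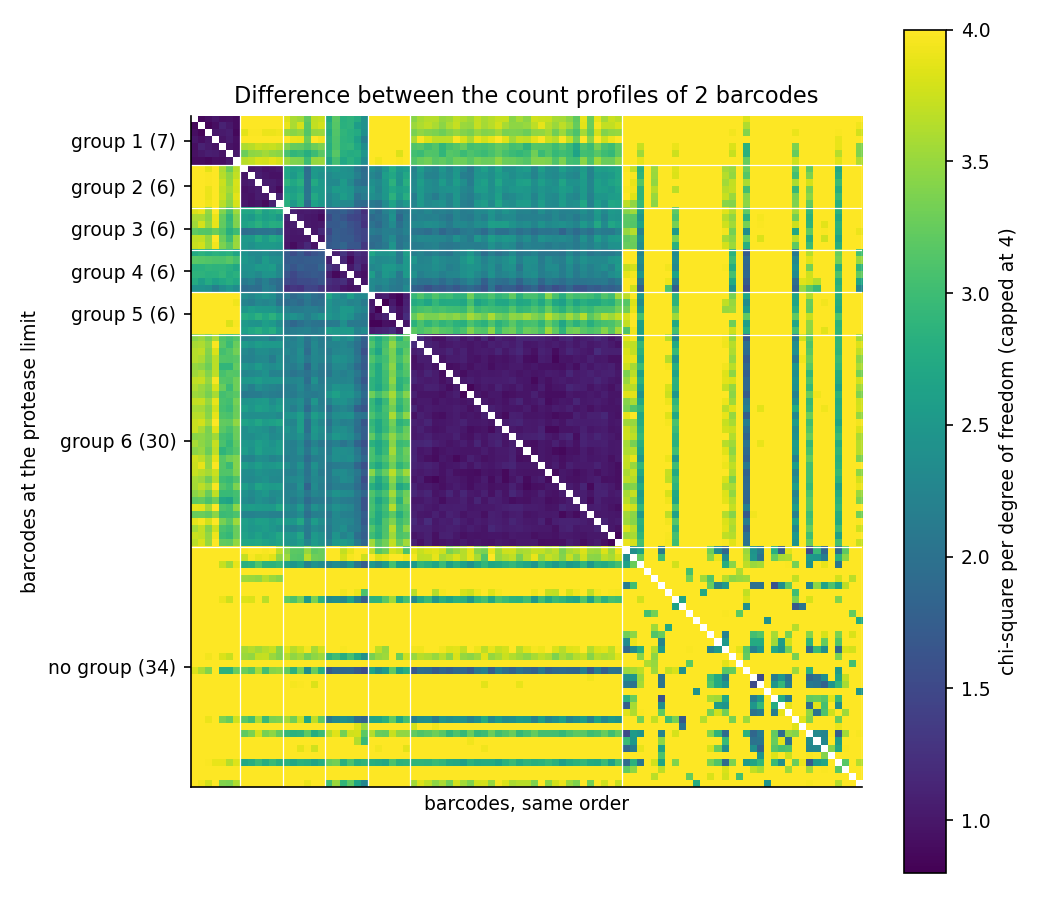
Chi-square per degree of freedom between the count profiles of each pair of barcodes at the protease limit (both axes, same order), sorted by group and capped at 4. The 6 blocks on the diagonal are the groups of 6–30 barcodes near 1, and the barcodes of no group show no such block.

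Groups held 33 of the 63 mast cell barcodes, and each group carried a profile of its own. Group 1 (7 barcodes, 7 mast cell barcodes) held the endothelial transcripts *Igfbp7* (185 UMIs, in 7 of 7), *Cdh5* (24 UMIs), and *Pecam1* (23 UMIs) beside 26 UMIs of *Tpsb2*. Group 2 (6 barcodes) held 202 UMIs of *Mcpt1*, 180 UMIs of *Mcpt2*, and 1296 UMIs of the ferritin gene *Ftl1*. Groups 3, 4, and 5 (6 barcodes each) held no *Mcpt1* or *Mcpt2* UMI, with 98 UMIs, 4 UMIs, and 54 UMIs of the interferon-induced *Isg15*. Group 6 held 30 barcodes, of which 28 had a *Cd3* UMI and 2 were mast cell barcodes, with 593 UMIs of granzyme A (*Gzma*) and 271 UMIs of keratin 18 (*Krt18*). With each group counted once, the 63 barcodes held 36 distinct profiles. Why these barcodes agree was not tested, and results are given with and without them.

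Mast cell barcodes were rare in every library except that one. In whole tumor libraries, the count was 1 of 8767 barcodes (0.0114%) with Isotype Control, 2 of 5564 (0.0359%) with Anti-PD-1, and 1 of 8009 (0.0125%) with Anti-CTLA-4. PancVAX + Anti-PD-1 had 4 of 6874 (0.0582%) and PancVAX + Anti-CTLA-4 had 2 of 9705 (0.0206%). The other 3 whole tumor libraries had 0, which by a floor of 3 counts allows shares of up to 0.0445% (Anti-PD-1 + Anti-CTLA-4), 0.0511% (PancVAX), and 0.0413% (PancVAX + Anti-PD-1 + Anti-CTLA-4). The exact binomial 95% intervals of these libraries reach 0.0547%, 0.0628%, and 0.0508%. These limits lie above most of the shares that were measured, so whole tumor libraries at 0 and at 1 or 2 barcodes could not be told apart at this depth.

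In Percoll libraries, the count was 1 of 4881 (0.0205%) with Isotype Control, 4 of 6625 (0.0604%) with Anti-PD-1, 2 of 8811 (0.0227%) with Anti-CTLA-4, and 3 of 10252 (0.0293%) with both antibodies. PancVAX had 0 of 6279 (up to 0.0478%), PancVAX + Anti-CTLA-4 had 5 of 6511 (0.0768%), and the triple combination had 2 of 8115 (0.0246%). PancVAX + Anti-PD-1 had 36 of 10640 (0.338%, exact binomial 95% interval 0.237%–0.468%). Without the grouped barcodes it had 3 of 10579 (0.0284%), within the range of the other 7. Intervals and floors cover counting error only.

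**Figure D2:**
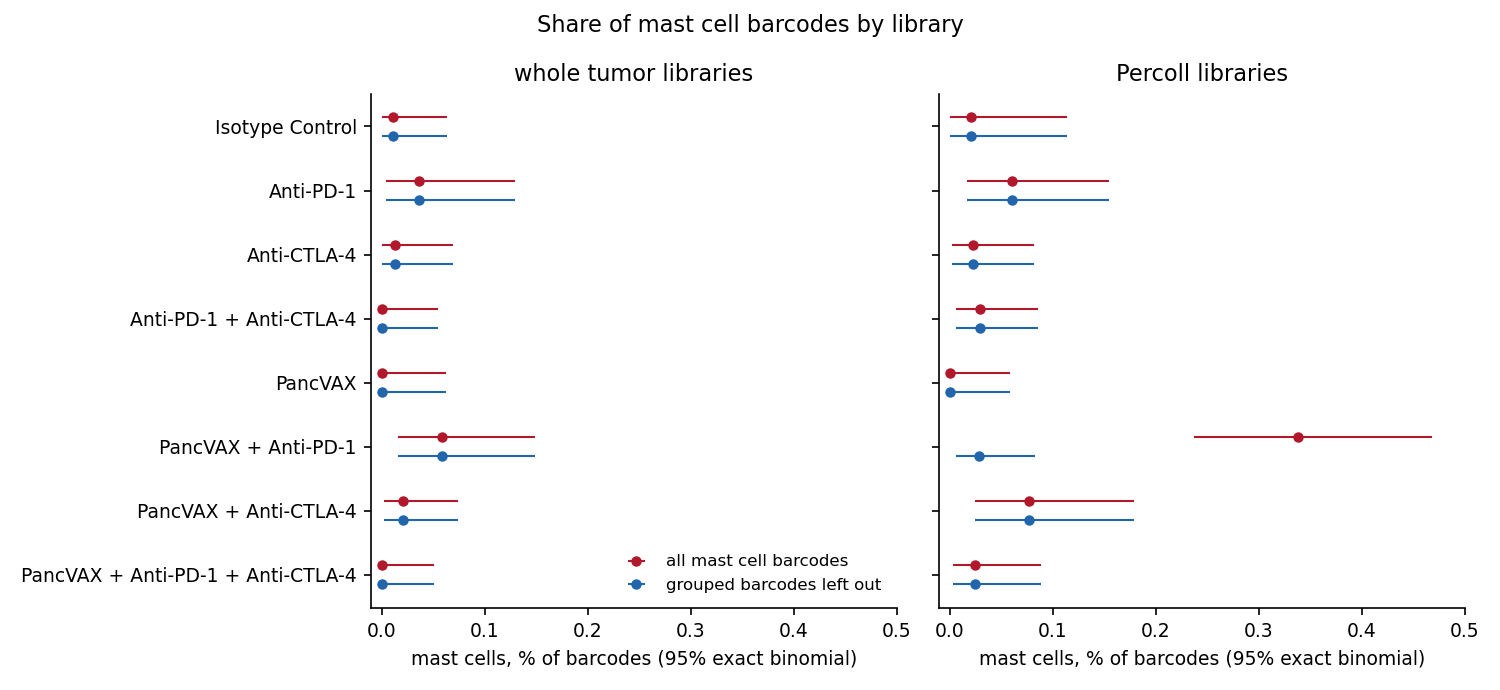
Mast cell barcodes as a percentage of barcodes past the depth limits (x axis) by treatment (y axis) in whole tumor (left) and Percoll (right) libraries, with exact binomial 95% intervals, for all mast cell barcodes (red) and without grouped barcodes (blue). The PancVAX + Anti-PD-1 Percoll library moves from 0.338% to 0.0284%.

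No difference in the mast cell share by agent exceeded the spread between pools. Over 4 pools with and 4 without each agent, where a pool is the mean of its 2 libraries, the share was 0.0648% ± 0.0913 with PancVAX and 0.0241% ± 0.0161 without it (SD, n = 4 each, exact two-sided permutation *P* = 0.686, adjusted 0.686). It was 0.0683% ± 0.0881 with anti–PD-1 and 0.0206% ± 0.0204 without it (exact permutation *P* = 0.486, adjusted 0.686). With anti–CTLA-4 it was 0.0233% ± 0.0171 and without it 0.0656% ± 0.0907 (exact permutation *P* = 0.600, adjusted 0.686). The smallest *P* these 70 splits allow is 0.0286. All 3 differences rest on the PancVAX + Anti-PD-1 pool. Without the grouped barcodes they were 0.00199, 0.00904, and −0.00353 percentage points, and without that pool the PancVAX difference was −0.00374 and the anti–CTLA-4 difference 0.00194.

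The share was higher in Percoll than in whole tumor libraries when all 63 barcodes were counted. It was 0.0716% ± 0.110 after Percoll and 0.0173% ± 0.0207 in whole tumor (SD, n = 8 each), higher in 7 of 8 treatments and 0 in both libraries of PancVAX (exact sign-flip permutation *P* = 0.0156, two-sided, the smallest these pairs allow). Without the grouped barcodes the mean difference fell from 0.0542 to 0.0155 percentage points, with 6 treatments higher and 1 lower (exact permutation *P* = 0.125). When mast cell and other barcodes alike had to hold a *Ptprc* (CD45) UMI, the difference was 0.0231 percentage points (exact permutation *P* = 0.312). This cut the mast cell barcodes too, for example from 36 to 6 in the PancVAX + Anti-PD-1 Percoll library. Preparation and sequencing batch cannot be told apart.

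The 4 proteases were high in the sum of the 30 barcodes outside the groups, as the choice required. These barcodes held 10754 CPM (UMIs per 1000000 UMIs, summed over the barcodes) of *Cma1*, 8269 CPM of *Mcpt4*, 6426 CPM of *Tpsb2*, and 2878 CPM of *Cpa3*, against 0.161–0.372 CPM in other barcodes. Levels in other barcodes are given here and below for the barcodes that are neither mast cells nor in a group, while the fit below keeps the grouped barcodes left out for *Cd3* among the others, where *Fcer1a* was at 0.110 CPM. *Kit*, the marker that the choice did not use, was at 200.2 CPM (exact 95% counting interval 134–288) against 1.92 CPM in the others, with a UMI in 13 of 30 barcodes (43.3%) and in 4.32% of barcodes with 3 or more *Cd3* UMIs. Mast cell barcodes outside groups were shallow, at 1028–27748 UMIs (median 1975.5), against a median of 10612 UMIs in other barcodes and 4261 UMIs in the *Cd3* barcodes, so that a gene without a UMI in 1 barcode may still be present.

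Of these 30 barcodes, 27 had at least 2 of the 4 proteases and 3 had only 1. Among the 3, an Anti-PD-1 whole tumor barcode had 3 *Tpsb2* UMIs and no other protease. A barcode of the triple combination (Percoll) had 4 *Cma1* UMIs beside 37 UMIs of *Gzma*, and a barcode of Anti-PD-1 + Anti-CTLA-4 (Percoll) had 7 *Cma1* UMIs beside 84 UMIs of *Gzma*. Both also held UMIs of the NK cell genes *Ncr1* (3 and 4 UMIs) and *Nkg7* (6 and 13 UMIs). None of the 3 held a UMI of *Kit*, *Fcer1a*, *Mcpt1*, or *Mcpt2*, so that the mast cell label of these 3 rests on the rule alone.

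The 27 remaining barcodes divided by *Mcpt1*, a split chosen after their values were seen and given as a description. Barcodes with *Mcpt1* numbered 9, from 8 libraries, and those without numbered 18, from 9 libraries. *Mcpt1* reached 7.02–1035 UMIs per 10000 (median 242) in the former. *Mcpt2*, the other mucosal-type protease, had a UMI in 9 of 9 (median 258 per 10000) and in 8 of 18 (median 0), so that *Mcpt2* was present but lower in part of the second set.

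The connective tissue type proteases ran the other way, but they chose the barcodes. Each of the 27 barcodes had at least 2 of *Cma1*, *Tpsb2*, *Mcpt4*, and *Cpa3*, and a barcode with *Mcpt1* or *Mcpt2* alone could not enter. How often these 4 genes were found, above all without *Mcpt1*, was thus in part set by the choice. *Cma1* was found in 6 of 9 barcodes with *Mcpt1* (median 2.09 per 10000) and in 18 of 18 without (median 390, lowest 8.655). *Tpsb2* was found in 6 of 9 (median 4.64) and 18 of 18 (median 184), and *Mcpt4* in 7 of 9 (median 49.3) and 18 of 18 (median 283). The ranges overlapped for all 3 genes. *Cpa3*, found in both mast cell types, differed less, with medians of 23.2 and 63.8 per 10000.

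Some genes outside the granule proteases, chosen after their values were seen, differed across the split and others did not. *Ccl7*, a monocyte-attracting chemokine, had a UMI in 1 of 9 barcodes with *Mcpt1* (491 CPM) and in 17 of 18 without (6794 CPM), although the former were deeper (median 3754 against 1484.5 UMIs). *Mrgprb1*, a mast cell receptor of the Mas-related family, had 1 UMI in 1 of 9 and 28 UMIs in 13 of 18. *Fcer1a*, the IgE-binding chain of FcεRI, was at 548 CPM with *Mcpt1* and 2376 CPM without. *Kit* (5 of 9 and 8 of 18 barcodes) and *Hdc*, the histamine-forming enzyme (6 of 9 and 12 of 18), were found in both sets. *Gata2* (434 CPM with *Mcpt1* and 173 CPM without) and *Kit* (283 and 161 CPM) were at higher summed levels with *Mcpt1*. The exact counting intervals overlapped for both genes (275–652 and 96.8–285 CPM for *Gata2*, 159–467 and 88.3–271 CPM for *Kit*). Deep barcodes weighed on these sums. Without *Mcpt1*, barcodes of 27748, 14956, and 11554 of the 86697 UMIs held 0 *Kit* UMIs and 1, 0, and 0 *Gata2* UMIs. With *Mcpt1*, a barcode of 24233 of the 52935 UMIs held 3 *Kit* and 2 *Gata2* UMIs. No direction is read from these sums.

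Other transcripts were found mainly in barcodes with *Mcpt1*. *Ifitm1*, an interferon-induced membrane protein gene, had 81 UMIs in 3 of 9 barcodes and 2 UMIs in 1 of 18. *Ccl4*, a chemokine, had 169 UMIs in 5 of 9, of which 134 came from 1 PancVAX + Anti-PD-1 whole tumor barcode and 2–22 from each of the other 4, and 7 UMIs in 1 of 18. *Mcpt8*, a protease of basophils, had 50 UMIs in 3 barcodes, with 25 UMIs in an Anti-CTLA-4 whole tumor barcode, 13 UMIs in a triple-combination Percoll barcode, and 12 UMIs in an Anti-CTLA-4 Percoll barcode, and these 3 also held *Cpa3*, *Mcpt1*, and *Kit* UMIs. *Mcpt9* was found in 2 barcodes, both with *Mcpt1* (49 and 10 UMIs). Of the other basophil and eosinophil markers, *Prss34* had 4 UMIs in 3 barcodes and *Prg2*, *Epx*, *Ear2*, and *Siglecf* had 0.

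**Figure D3:**
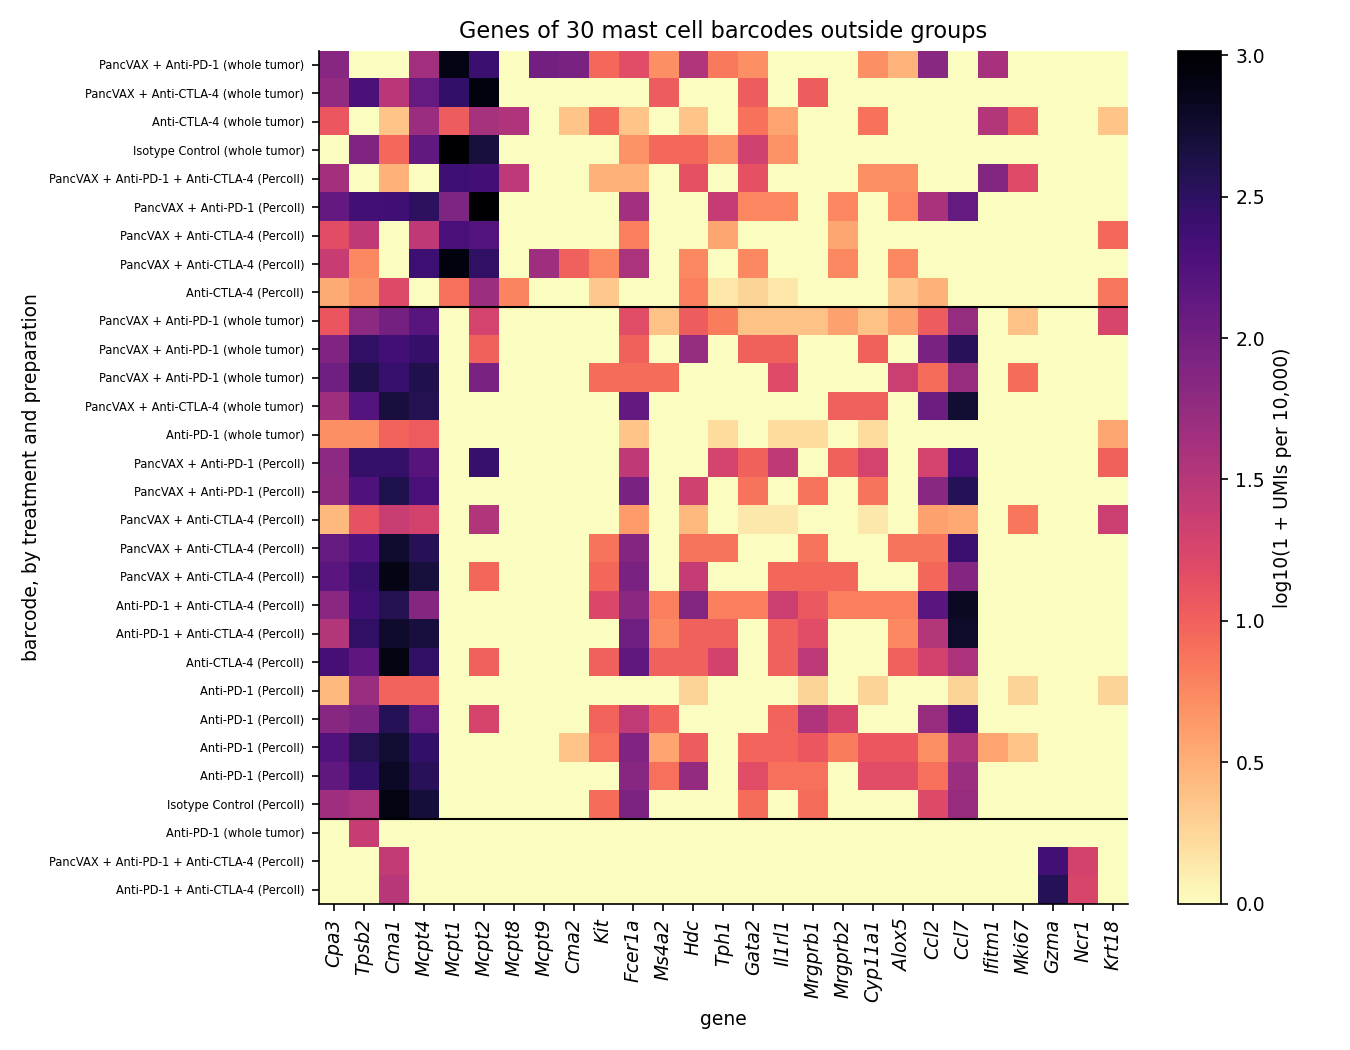
Level of 27 genes (columns, log10 of 1 plus UMIs per 10000) in the 30 mast cell barcodes outside groups (lines, by treatment and preparation), with the 9 barcodes with *Mcpt1* on top, the 18 without in the middle, and the 3 with a single protease at the bottom. *Cma1* and *Ccl7* are dark in the middle block, *Mcpt1* and *Mcpt2* in the top block, and *Gzma* in 2 of the bottom 3.

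To ask what else is found with the proteases, UMIs of mast cell barcodes and of all other barcodes were summed within each of the 7 pools that had a mast cell barcode and compared in 1 fit, with the 10 genes of the choice left out. A gene whose RNA goes with the proteases had to differ in such a fit, so calls describe what accompanies the choice. The *P* values and SE of this fit rest on a spread pooled over all genes. They do not measure the spread of a single gene between the 7 pools. Of 16641 genes, 227 (1.36%) were higher and 209 (1.26%) lower in mast cell barcodes (edgeR quasi-likelihood, Benjamini-Hochberg adjusted *P* below 0.05 and log2 difference over 0.5). Genes near 0 CPM in the others, such as *Mcpt9* (0.00863), *Tpsg1* (0.0136), and *Mrgprb2* (0.00740), passed the filter on low counts through the small mast cell sums alone. The rise of such genes, here and below, was in part set by this filter. With no filter, 212 of 26142 genes (0.811%) were higher. The median log2 difference of all genes was −1.02 with the scaling used and −0.63 with total UMIs only, so differences are to be read against that shift. Of the 227, 225 were also higher with total UMIs only and 144 without the grouped barcodes. Of the 209, 104 were also lower with total UMIs only 88 had no UMI in any mast cell barcode, and 5 were at a higher CPM in mast cell barcodes than in the others when pools were summed. On simulated data with sums as small as these, the same fit called many unchanged genes lower and few higher, so a count of lower calls alone is not read as a result. The share of calls that were higher was 52.1% here, 72.0% with total UMIs only, and 71.0% with RLE, which change the scaling alone. It was 90.3% with DESeq2 and 10.9% with DESeq2 and poscounts size factors, and 27.7% in the same fit without the grouped barcodes. Over all genes, DESeq2 called 1.68% higher and 0.180% lower, against 2.70% and 22.1% with poscounts size factors. Counts by DESeq2 given below for single lists are to be read beside these shares. Genes named as lower were also called by total UMIs, except where stated.

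Granule proteases were among the genes with the largest rises. Of 11 tested (the 4 used for the choice left out), 8 rose. The cathepsins *Ctsl* and *Ctsc* were called lower with this scaling and not with total UMIs only, and *Ctsl* was at 520 CPM in the 63 barcodes against 430 CPM in the others, so no direction is given for them. *Mcpt2* rose by 13.16 ± 0.84 on the log2 scale (SE, adjusted *P* = 1.3e-51), *Mcpt1* by 11.71 ± 0.83, and the tryptase *Tpsab1* by 11.87 ± 0.71. *Tpsg1*, a membrane-anchored tryptase, rose by 12.15 ± 0.58. *Gzmb*, which T cells and NK cells also express, rose by 2.47 ± 0.48 and lost its call in 1 alternative (1.29). It had a UMI in 9 of 30 barcodes and in 56.9% of *Cd3* barcodes. Levels of *Tpsab1*, *Mcpt1*, and *Mcpt2* are uncertain as stated above.

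Genes for granule matrix and amines rose in part, 6 of 16, with *Serpina3g* lower at 0 UMIs, a call lost in 2 alternatives. DESeq2 called 6 higher and 0 lower, or 6 and 4 with poscounts size factors. *Srgn*, the serglycin core protein, was at 2954 CPM outside groups against 310 CPM in the others (log2 2.34 ± 0.48, adjusted *P* = 0.00016). *Hdc* was at 676 CPM against 16.8 CPM (4.54 ± 0.47). *Tph1*, the first enzyme of serotonin synthesis, was at 166 CPM against 0.0156 CPM (11.70 ± 0.50), and *Slc18a2*, the vesicular amine transporter, rose by 5.52 ± 0.56. *Serpinb1a* and *Hs6st2*, a heparan sulfate sulfotransferase, were the others. The granule membrane gene *Cd63* was at 2160 CPM outside groups against 1265 CPM and did not pass the test.

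The IgE receptor and its signaling genes had 5 of 20 higher by edgeR and 6 by DESeq2, and 0 lower by either (3 lower at an unadjusted *P* below 0.05, and 3 called with poscounts size factors). *Fcer1a* was at 1622 CPM against 0.0558 CPM, with a UMI in 24 of 30 barcodes and in 0.0353% of *Cd3* barcodes (log2 13.72 ± 0.76, adjusted *P* = 1.8e-69). *Ms4a2*, the beta chain, was at 96.6 CPM against 0.0151 CPM (11.28 ± 0.62). *Fcer1g*, the gamma chain that macrophages and other cells share, was at 1394 CPM against 495 CPM (0.84 ± 0.46, adjusted *P* = 0.38 by edgeR), and it passed with total UMIs only (1.60), RLE (1.53), and DESeq2 (1.55). The adapters *Lat2* (3.37 ± 0.42) and *Lat* (2.31 ± 0.43) and the kinase *Btk* (2.87 ± 0.53) rose, and *Btk* lost its call without the PancVAX + Anti-PD-1 pool (2.78).

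*Kit* and other growth factor receptor and survival genes had 5 of 16 higher and 2 lower, the *Bcl2* relatives *Bcl2a1b* and *Bcl2a1d*. DESeq2 called 4 higher and 0 lower, or 3 and 7 with poscounts size factors. *Kit* rose by 5.90 ± 0.37 (adjusted *P* = 2.4e-54), and by 6.04 ± 0.40 without the grouped barcodes. *Il1rl1*, the receptor of IL-33, was at 207 CPM against 24.96 CPM (2.29 ± 0.42) and lost its call in 1 alternative (1.22). The beta chains of the IL-3 receptor family, *Csf2rb2* (3.83 ± 0.40) and *Csf2rb* (1.77 ± 0.43), also rose, the latter losing its call with DESeq2 under both kinds of size factors and without the Anti-CTLA-4 pool (1.00), as did *Il3ra* (2.28 ± 0.57), which lost its call in 9 alternatives, one of them without the grouped barcodes. Of 26 receptors for peptides, amines, and chemotactic signals, 6 rose, among them *Mrgprb1* (11.56 ± 0.42), *Mrgprb2*, the receptor for basic secretagogues (12.07 ± 0.68), and the adenosine receptor *Adora3* (5.52 ± 0.58). The mast cell and basophil receptor *Cd200r3* rose by 9.59 ± 0.54 and the inhibitory receptor *Lilrb4a* by 1.52 ± 0.45, the 2 of 18 inhibitory receptors that did, and *Lilrb4a* lost its call in 7 alternatives.

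Enzymes of lipid mediators had 4 of 13 higher. *Alox5*, the lipoxygenase of leukotriene synthesis, rose by 6.26 ± 0.36 and its partner *Alox5ap* by 3.66 ± 0.48, at 966 CPM against 38.8 CPM. *Cyp11a1*, the enzyme that starts steroid synthesis from cholesterol, was at 200.2 CPM against 0.214 CPM (8.88 ± 0.37), with a UMI in 14 of 30 barcodes. *Hpgds*, a prostaglandin D synthase, rose by 1.62 ± 0.48 and lost its call in 11 alternatives, one of them without the grouped barcodes. *Ltc4s*, the leukotriene C synthase, gave 0.98 ± 0.60 (4 UMIs outside groups) and did not pass the test.

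Of 20 transcription factors tested, *Gata2* (8.87 ± 0.37, 262 CPM against 0.313 CPM, a UMI in 17 of 30 barcodes) and *Tal1* (6.05 ± 1.05, from 3 UMIs) rose, and *Tal1* lost its call without the pool of the triple combination (4.29). In the split by *Mcpt1*, *Gata2* had a UMI in 8 of 9 barcodes with it and 9 of 18 without, at overlapping levels of 0–19.7 and 0–13.8 UMIs per 10000. The remaining rises among the 25 largest at 50 CPM or more were *Mcpt9*, *Cma2*, *Atp8b5*, *Mcpt8*, *Car8*, *4932438H23Rik*, *Slc45a3*, *Papss2*, which makes the sulfate donor used for heparin, *Cited4*, and *Slco2b1*, at log2 5.67–12.98. Each of the 25 kept its call without the grouped barcodes, but those near 0 CPM in the others had entered the fit through the mast cell sums.

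**Figure D4:**
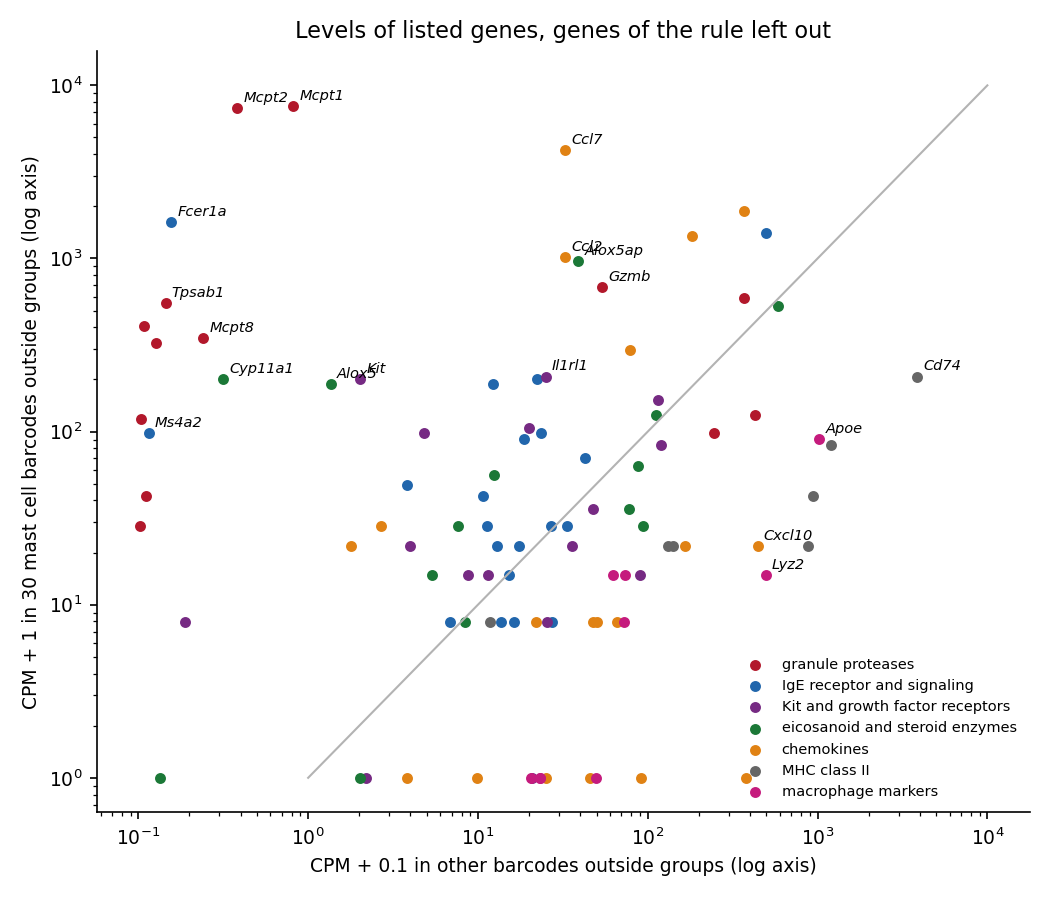
Level of listed genes in the 30 mast cell barcodes outside groups (y axis, CPM + 1, log axis) against other barcodes outside groups (x axis, CPM + 0.1, log axis), colored by list, with the 4 proteases of the choice left out and the line of equal values in gray. *Mcpt2*, *Mcpt1*, *Fcer1a*, and *Kit* lie above the line and *Cd74*, *Apoe*, and *Lyz2* below it.

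Chemokines split into 2 that rose and 8 that fell among 19 tested, with the same counts by total UMIs only, while DESeq2 called 2 higher and 4 lower (10 lower with poscounts size factors). *Ccl7* was at 4245 CPM against 32.4 CPM (log2 4.91 ± 0.61, adjusted *P* = 2.4e-13), with a UMI in 18 of 30 barcodes and in 1.77% of *Cd3* barcodes. *Ccl2*, also a monocyte chemoattractant, was at 1022 CPM against 32.5 CPM (3.40 ± 0.50). The interferon-γ-induced *Cxcl9* fell by 3.34 ± 0.69 on the log2 scale. *Cxcl16* fell by 3.50 ± 0.84, losing its call in 1 alternative (−2.24), and *Cxcl2*, a neutrophil attractant, fell by 4.63 ± 0.72. *Ccl4* and *Ccl5* did not pass the test, and 271 UMIs of *Ccl5* came from 4 of the 30 barcodes.

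Among 22 cytokines, 3 rose and 2 fell (*Il1b* and, not by total UMIs only, *Areg*). *Il4* (8.63 ± 0.71, 10 UMIs in 6 of 30 barcodes, a UMI in 0.112% of *Cd3* barcodes) and *Il13* (6.02 ± 0.83, 5 UMIs), cytokines of type 2 responses, rose. *Tnfsf14* was higher only through grouped barcodes, with 14 UMIs inside groups and 0 outside. *Il1b* fell by 3.50 ± 0.65. *Tnf* gave 1.14 ± 0.47 with all barcodes (adjusted *P* = 0.22 by edgeR) and 1.74 ± 0.49 without the grouped ones, where it passed (adjusted *P* = 0.019 by edgeR). It passed on few UMIs, 10 in 2 of the 9 barcodes with *Mcpt1* and 3 in 2 of the 18 without. Of the 10, 8 came from 1 PancVAX + Anti-PD-1 whole tumor barcode. *Tgfb1*, *Vegfa*, and *Csf1* did not pass either way.

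MHC class II genes were low in mast cell barcodes outside groups, at 400.3 CPM summed over 7 genes against 7143 CPM in the others, and at 4929 CPM inside groups, whose part in the fit was not tested beyond leaving them out. In the fit 6 of 7 fell, 5 also by total UMIs only. *Cd74*, the invariant chain, fell by 4.56 ± 0.59 on the log2 scale, and *H2-Aa* fell by 3.80 ± 0.60. Barcodes rich in C1q had been left out of the mast cells but kept among the others. The part of this choice in the lower MHC class II genes, and in the lower chemokines and *Il1b* above, was not tested. Of 12 MHC class I genes 0 were called by edgeR or DESeq2, 2 were lower at an unadjusted *P* below 0.05, and 9 were called lower with poscounts size factors (4176 CPM outside groups and 4496 CPM in the others).

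Lists of general cell programs are given by their counts, beside 1.36% higher and 1.26% lower over all genes by edgeR. These shares were 1.68% and 0.180% by DESeq2, and 2.70% and 22.1% with poscounts size factors. The share of all genes at an unadjusted *P* below 0.05 was not computed, so counts at that limit have no such baseline. Of 14 exocytosis genes 1 rose, the secretory granule GTPase *Rab27b* (3.58 ± 0.41). By edgeR, 0 of 15 cell cycle genes, 0 of 10 heat shock genes, and 0 of 19 checkpoint and T cell ligands were called, and by DESeq2 0 of each. At an unadjusted *P* below 0.05, 3, 4, and 6 of them were lower and 0, 0, and 1 higher, and with poscounts size factors DESeq2 called 12, 9, and 6 lower. Immediate early genes had 1 of 27 higher (*Cd69*, not by total UMIs only) and 2 lower (*Fos* and *Zfp36*, also by total UMIs only, and *Fos* not without the PancVAX + Anti-CTLA-4 pool, at −1.88), and their median log2 difference (−1.04) lay beside −1.02 for all genes. Without the grouped barcodes 7 immediate early genes and 10 glycolysis and hypoxia genes were lower, against 0 of the latter with all 63 barcodes, while 2.59% of all genes were lower. The median log2 differences of these 2 lists were then −1.15 and −1.71, not below the −1.79 of all genes. Interferon genes had a median of −2.08 in that fit. These counts are not read as a fall of the programs. Interferon genes had 1 of 34 higher and 2 lower, a median of −1.01, and none of these calls but the higher one (*Ifit1*) held with total UMIs only. Without the grouped barcodes 0 interferon genes were higher and 9 were lower, with summed levels of 2140 CPM outside groups, 6433 CPM inside them, and 2909 CPM in other barcodes. At an unadjusted *P* below 0.05 with all 63 barcodes, 12 interferon, 14 immediate early, and 12 glycolysis and hypoxia genes were lower, and DESeq2 called 0, 2, and 0 of them lower, or 19, 21, and 15 with poscounts size factors.

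Markers of other cells outside the groups differed by list. Tumor and epithelial markers summed to 1512 CPM against 2393 CPM in the others, T and NK cell markers to 200.2 CPM against 244 CPM, and fibroblast markers to 145 CPM (5 of 30 barcodes) against 567.8 CPM. Single barcodes carried much of these sums. Tumor and epithelial markers were at 692 CPM without the 1 barcode that held 138 of their 219 UMIs, T and NK cell markers at 21.5 CPM without the 3 barcodes with a single protease (26 of 29 UMIs), and fibroblast markers at 77.0 CPM without the 1 barcode that held 11 of their 21 UMIs. The sum of B and plasma cell, dendritic cell, endothelial, and erythroid markers was 0 UMIs. All 9 macrophage markers fell by edgeR and 2 by DESeq2, with *Lyz2* at 13.8 CPM against 495 CPM (−4.84 ± 0.71), but C1q had been used to leave macrophages out, so this direction was in part set by the choice. Of 8 T and NK cell markers *Ncr1* and *Nkg7* were found, in 4 barcodes, and *Ncr1* was called higher by edgeR (5.06 ± 0.64) on the 7 UMIs of the 2 barcodes with *Gzma*. Of these 8 markers 3 were called lower by edgeR, 1 was lower by total UMIs only, and DESeq2 called 0 in either direction (1 higher and 6 lower by edgeR at an unadjusted *P* below 0.05, and 5 lower with poscounts size factors). Barcodes with a *Cd3* UMI had been left out of the mast cells alone, so lower T cell markers were in part set by the choice. Tumor and epithelial markers reached 3 or more UMIs in 6 of 30 barcodes, up to 138 UMIs in the PancVAX + Anti-CTLA-4 Percoll barcode of 27748 UMIs. Inside groups, 23 of 33 had 3 or more. Of 4 endothelial markers, 3 were called higher by edgeR with all 63 barcodes, such as *Cdh5* (2.79 ± 0.48), and 0 by DESeq2, and all 4 were at 0 UMIs outside groups. Of 53 mast cell barcodes in Percoll libraries, 0 had a T cell receptor contig, against 8006 of 62114 barcodes (12.9%), but barcodes with a *Cd3* UMI had been left out, so this count was in part set by the choice. Of the 29 barcodes left out for *Cd3*, 5 had a contig. The part of mixed barcodes in these values was not tested.

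Levels outside the groups varied between pools with too few barcodes for a test between treatments, since each pool held 7 or fewer. *Fcer1a* was at 3100 CPM in 2 barcodes of Isotype Control, 1912 CPM in 6 of Anti-PD-1, 490 CPM in 3 of Anti-CTLA-4, and 5524 CPM in 3 of Anti-PD-1 + Anti-CTLA-4. With the vaccine it was at 2268 CPM in 7 of PancVAX + Anti-PD-1, 1427 CPM in 7 of PancVAX + Anti-CTLA-4, and 156 CPM in 2 of the triple combination. *Ccl7* ranged from 0 CPM in the triple combination to 38984 CPM in Anti-PD-1 + Anti-CTLA-4. The 2 pools lowest in *Fcer1a* are also those that hold the 3 barcodes with *Mcpt8*, but single barcodes set these levels. In Anti-CTLA-4, 1 Percoll barcode held 24233 of 32630 UMIs and no *Fcer1a* UMI, while another held 15 *Fcer1a* UMIs in 1097. The levels of Anti-PD-1, Anti-PD-1 + Anti-CTLA-4, and the triple combination each include 1 of the 3 barcodes with a single protease.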

How the data were processed

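Droplet libraries (Chromium single-cell 5′ kit) of 16 samples gave RNA counts, and 8 Percoll libraries also gave T cell receptor contigs. The authors deposited raw UMI counts per gene and barcode (32285 genes), with no normalization. Cell Ranger 4.0.0, Seurat, and mm10 are named in the submitters' processing notes. The barcode suffix gives the library, and 8199 of 8292 contig barcodes were found in the matrix under the same library number. No deposited column of fold changes or *P* values was used, and the number of unused columns of per-sample values was 0.

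Members and gene lists were chosen with earlier results of these data known. Levels are UMIs per 10000 of a barcode or CPM over summed barcodes. Fits used UMIs summed by pool (7 pools with a mast cell, 14 columns, pool as a block), edgeR 4.0.16 (limma 3.58.1, R 4.3.3) quasi-likelihood tests, TMM, and filterByExpr. Genes were called at adjusted *P* below 0.05 and a log2 difference over 0.5, and the fit was tested on simulated data, where it recovered nearly all changed genes and also called unchanged genes lower. Named genes were the 5 markers, the 25 called genes with the largest rise at 50 CPM or more, members of the lists by level, and list members at 0. Some list members named with fit values were chosen after their values were seen. Shares were compared by exact permutation tests, two-sided. Intervals are exact (binomial or Poisson, 95%), the floor is 3 counts, and both cover counting error only. Other tools were DESeq2 1.42.0 and, under Python 3.11.15, scipy 1.17.1, pandas 2.3.3, and numpy 2.4.6.

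No doublet caller was run. Barcodes were compared by a chi-square statistic of their counts. Barcode sequences were not shared between mast cells of any 2 libraries (0), and 11 of the 63 also occurred in another library. The paper's limits (200–3000 genes, 1000–10000 UMIs, no hemoglobin) leave 57357 barcodes and drop 8 of the 63. Alternatives were another tool, scaling, filter, choice of cells, a *Ptprc* UMI required in mast cell and other barcodes alike, preparation, and leaving out each pool. The grouping of barcodes, the choice by 2 proteases, the split by *Mcpt1*, the fit by total UMIs only, TMMwsp, poscounts size factors, marker sums without single barcodes, and the unpaired comparison of preparations were added after seeing the data. Fits of genes between treatments or preparations were not made, since only 1 pool reached the limit of 10 mast cells set for them. Some genes of the series may not be reported here.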

Additional observations from a re-analysis of the deposited data

Results flagged for a closer look

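Of 12 groups of 4 or 8 samples that were checked for a value far from the others, 6 had one. The limit is set to mark about 1 in 20 groups of independent, normally distributed values. These groups share libraries and pools, so their count cannot be set against that rate. In the Percoll libraries the PancVAX + Anti-PD-1 share of mast cells was 0.338%, against 0.0768% in the next library. In the same library 28 barcodes at the protease limit had a *Cd3* UMI, against 1 in the next, and the 4 proteases reached 0.327 UMIs per 10000 in barcodes that were not called mast cells, against 0.0199 in the next. Without the barcodes of the 6 agreeing groups this last value was 0.00716, within the range of the other libraries (0.000933–0.0534).

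In whole tumor libraries the proteases reached 0.0534 UMIs per 10000 in other barcodes with PancVAX + Anti-PD-1, against 0.0182 in the next, and this library held no grouped barcode. Among the 4 pools without PancVAX, Anti-PD-1 had the highest share at 0.0482%, against 0.0176% in the next. Among the 4 pools with anti–CTLA-4, PancVAX + Anti-CTLA-4 had the highest at 0.0487%, against 0.0176% in the next. These 2 shares rest on 6 and 7 mast cell barcodes.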

How the results depend on the processing

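None of the 3 differences by agent passed the test under any of 19 alternatives each, with adjusted *P* of at least 0.429 (PancVAX), 0.429 (anti–CTLA-4), and 0.471 (anti–PD-1). Leaving out each pool gave −0.00374 to 0.0623 percentage points for PancVAX, −0.0641 to 0.00194 for anti–CTLA-4, and 0.00448 to 0.0665 for anti–PD-1, and the first 2 differences turned to −0.00374 and 0.00194 without the PancVAX + Anti-PD-1 pool. The Percoll difference no longer passed the test with a *Ptprc* UMI required in mast cell and other barcodes alike (0.0231, exact permutation *P* = 0.312). Nor did it pass without grouped barcodes (0.0155, *P* = 0.125), without them and with at least 2 proteases (0.0150, *P* = 0.172), and with no replicate block, that is, unpaired by treatment (0.0542, *P* = 0.103, all exact permutation). It held with 1 barcode per group (0.0226) and ranged over 0.0220–0.0620 when each pool was left out.

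The count of genes called (436) was 309–596 in 14 alternatives, 269 without the PancVAX + Anti-PD-1 pool, 269–384 over all pools left out, and 4122 with DESeq2 and poscounts size factors. Lower calls moved more with the scaling than higher ones, since 104 of 209 and 225 of 227 held with total UMIs only. Of 64 named genes, the 25 of the largest rises kept their call under each alternative that gave a value. *Fcer1g* (−0.18) and *Tnf* (−0.057) turned in sign with poscounts size factors, while *Fcer1g* passed at 1.53–1.60 in 3 alternatives. Genes carried by single groups or barcodes turned without them, with fitted values that depend on the prior count: *Tnfsf14* was −9.26 and *Cdh5* −12.31 without grouped barcodes, −9.27 and −12.32 with at least 2 proteases too, and −9.22 and −12.23 without the PancVAX + Anti-PD-1 pool, and *Ncr1* was −9.34 without grouped barcodes and with at least 2 proteases.

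Planned fits of genes between treatments and between preparations were not run, since at most 1 pool and 1 library had 10 mast cells under any choice of cells. No paired analysis was possible because, under that limit of 10, no treatment had both of its libraries left for genes between preparations. Without the limit, 5 treatments had a mast cell barcode in both, and this fit was not made.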
